A study of Mus musculus with 8 samples.

Results

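A group of 7 genes that keep ATP and oxygen available to contracting muscle was followed in libraries labelled as muscle satellite cells (SCs), the resident stem cells of muscle fibres, from control and exercise mice. They are Ckm, Ckmt2, Ckb, Ak1, Ampd1, Mb and Car3. They were taken by gene name from the deposited table, 7 of the 52636 genes in it, and all 7 passed the filter for testing, a mean over libraries of 1 FPKM or more, as did 4328 genes in total. FPKM is the number of reads of a gene divided by the length of that gene and by a size for the library.

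The question was how training changes the transcripts of SCs. Male C57B/6J mice, aged 10 weeks at the start, either stayed sedentary (control, 4 libraries) or were trained on a treadmill (exercise, 4 libraries), and no other treatment, allele or transgene was named for either group. Training lasted 4 weeks, with 4 sessions of 30 min a week at a belt speed of 12 m per min. Roughly 800 cells per library were sorted from the tibialis anterior as CD45-, Sca1-, CD11b- and CD31-negative cells that carried CD34 and integrin α7, and their mRNA was amplified with a library kit made for single cells. The labels do not name the animal behind a library, while the study's text counts mice as its replicates. The p-values below measure the spread between these libraries, which may in part be technical.

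Phosphocreatine is the fast energy store of muscle. Creatine kinases move the phosphate of ATP onto creatine where ATP is made and back onto ADP where it is spent, and they differ by place: Ckm in the cytosol and at the M-band of muscle fibres, Ckmt2 in the mitochondria of striated muscle, and Ckb in the cytosol of brain and many other cells. When ATP use outruns supply, adenylate kinase (Ak1) makes ATP and AMP from ADP, and the muscle AMP deaminase (Ampd1) removes the AMP as IMP, the opening step of the purine nucleotide cycle. Myoglobin (Mb) stores oxygen and carries it inside fibres, and carbonic anhydrase 3 (Car3) is an abundant cytosolic carbonic anhydrase of slow fibres and of adipocytes.

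The 3 creatine kinases have related coding sequences, so it was checked whether a read of one could be counted for another. In the GENCODE transcripts of GRCm38, the coding sequences of Ckm and Ckb (1143 bases each) were identical at 75.9% of aligned bases, and those of Ckm and Ckmt2 (1257 bases) at 66.2%. The most similar 60 bases that lie within 1 exon of all 3 genes are given here, in the coding direction, because they show how far the copies differ even where they are closest. They lie in exon 6 of Ckm (chr7:19419465-19419524, plus strand), exon 6 of Ckb (chr12:111670200-111670259, minus strand) and exon 7 of Ckmt2 (chr13:91859233-91859292, minus strand). Capitals mark bases that differ from Ckm.
Ckm: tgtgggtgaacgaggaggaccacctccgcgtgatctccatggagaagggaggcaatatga
Ckb: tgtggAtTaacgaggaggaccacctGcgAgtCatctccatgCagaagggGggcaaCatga
Ckmt2: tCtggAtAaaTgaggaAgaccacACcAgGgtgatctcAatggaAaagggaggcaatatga
Over this stretch Ckb differed from Ckm at 8 bases and Ckmt2 at 11. The longest run that 2 of the whole transcripts shared without a difference was 20 bases for Ckm and Ckb, 17 for Ckm and Ckmt2 and 15 for Ckb and Ckmt2, against reads of 150 bases.

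Promoters were looked at because Ckm and Mb had lower mean values in exercise libraries while the mean of Ckb was higher. The RefSeq table held 10 start sites for 5 of the 7 genes. The 250 bases before a start are given for Ckm (chr7:19410844-19411093, plus strand), for Mb at the middle one of its 3 listed starts (chr15:77022788-77023037, minus strand) and for Ckb (chr12:111672339-111672588, minus strand), all on GRCm38.p6. Capitals mark matches, on either strand, to the E-box CANNTG bound by myogenic factors such as MyoD, or to the consensus of the muscle factor MEF2.
Ckm: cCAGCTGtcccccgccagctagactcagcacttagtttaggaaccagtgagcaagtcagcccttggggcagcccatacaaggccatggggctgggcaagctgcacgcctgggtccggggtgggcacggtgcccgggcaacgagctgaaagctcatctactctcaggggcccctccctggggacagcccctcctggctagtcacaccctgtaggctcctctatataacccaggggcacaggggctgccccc
Mb: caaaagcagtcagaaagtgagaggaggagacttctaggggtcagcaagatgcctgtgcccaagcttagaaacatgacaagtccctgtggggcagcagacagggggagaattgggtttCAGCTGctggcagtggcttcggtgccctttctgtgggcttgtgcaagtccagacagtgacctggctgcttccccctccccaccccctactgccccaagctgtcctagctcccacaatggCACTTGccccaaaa
Ckb: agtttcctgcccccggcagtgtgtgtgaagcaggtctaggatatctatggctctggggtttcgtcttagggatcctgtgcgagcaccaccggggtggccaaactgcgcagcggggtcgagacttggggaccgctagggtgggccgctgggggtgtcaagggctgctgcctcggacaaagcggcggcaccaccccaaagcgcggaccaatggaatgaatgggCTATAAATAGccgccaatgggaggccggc
Ckm had 1 E-box and Mb had 2, and in each gene 1 of them was of the form CAGCTG. No E-box letters stood in the Ckb window, which had 1 MEF2 match that overlaps a TATAAA sequence. Of 32851 promoter windows of the same length, 66.2% held CANNTG, 13% held CAGCTG, 2.92% held the MEF2 consensus and 12.4% held TATAAA, so E-box letters are common in such windows. They were also present in each of the 4 windows of Ak1, and the Mb start farthest upstream had 2 E-boxes but no CAGCTG. These are letter matches only, and no binding was measured here.

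Several features of the 8 libraries bear on every value below. Control libraries held 2339966 to 3013354 reads on 5169 to 7307 genes, and exercise libraries held 1011737 to 1200221 reads on 2348 to 3289 genes. Mitochondrial transcripts took 2.09% to 15.3% of reads in control libraries, about 7.85% and 7.56% in exercise 1 and 2, and 50.2% and 68.7% in exercise 3 and 4. Summed over all genes, the FPKM of exercise 4 came to 2488140 and that of each other library to between 331669 and 637095, so a given share of reads stands as a higher FPKM there. Some libraries were also not independent in their gene content. Among genes that control 1 held on 50 reads or more and control 3 lacked (345 genes), the median share of reads in control 4 was 0.281 times that in control 1, and for genes of control 3 that control 1 lacked (658 genes) it was 0.714 times that in control 3. In exercise 3 the same medians were 0.299 for genes of exercise 1 that exercise 4 lacked (139 genes) and 0.678 for genes of exercise 4 that exercise 1 lacked (141 genes). In control 3 it was 0.674 for genes of control 2 that control 1 lacked (532 genes) and 0 for genes of control 1 that control 2 lacked (482 genes). Tests are therefore given for all 8 libraries as labelled, and again with exercise 1 and 2 averaged, alone or together with the removal of control 4 and exercise 3. Control 2 and 3 stay separate samples in those sets.

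The labelled cell type was checked against its markers. Pax7, the transcription factor that defines SCs, and Itga7, which encodes the integrin of the sort, had no read in any of the 8 libraries, nor did Cdh15 and Calcr. Cd34, the other surface protein that the sort required, had reads in all 8 libraries, at 0.12 to 1.48 FPKM in control and 1.90 to 9.63 FPKM in exercise libraries, with groups that did not overlap (log2 fold change 1.68, adjusted p = 0.0670 in limma). Of 12 SC markers 8 had a read, and their summed level was 23.4 to 51.5 FPKM in control and 32.6 to 122 FPKM in exercise libraries. Of the 5 tested, Chodl was called lower, at 3.29 to 16.5 FPKM in control libraries with no read in exercise libraries (adjusted p = 0.00881 in limma), and Heyl was called higher, with no read in control libraries and 0.679 to 28.4 FPKM in exercise libraries (adjusted p = 0.0212 in limma). The fast fibre genes Mylpf (a myosin light chain) and Pvalb (parvalbumin) stood at 3342 to 10599 FPKM and 1617 to 6065 FPKM, and the summed level of 18 myofibre markers was 34943 to 85050 FPKM in control and 19892 to 106338 FPKM in exercise libraries. Of those 18 markers, 3 (Myh1, Tcap and Pygm) were lower in exercise libraries at an adjusted p under 0.05, none was higher, and Myh7 and Tnnc2 had no read. The 5 immune markers had no read in any library. Of 6 endothelial markers 2 had reads. Kdr, a VEGF receptor, was 0, 2994, 1669 and 1076 FPKM in control 1 to 4 and at most 0.530 FPKM in exercise libraries (adjusted p = 0.0281 in limma), and Tek, an angiopoietin receptor, was at most 0.0925 FPKM in control and 4.42 to 25.8 FPKM in exercise libraries (adjusted p = 0.00395 in limma). Of 5 markers of smooth muscle and pericytes 1 was called, Myh11, with no read in control libraries and 3.14 to 71.5 FPKM in exercise libraries (adjusted p = 0.00646 in limma). Acta2, the smooth muscle actin of the same list, had a mean of 19.8 FPKM in control and 1.08 FPKM in exercise libraries (log2 fold change -1.96, adjusted p = 0.220 in limma), and Rgs5 and Tagln had no read in any library. Most of the genes described here are fibre genes, measured in libraries rich in fibre transcripts, and in such bulk samples fewer cells of a type and less RNA per cell cannot be told apart.

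Mb and Car3, 2 of the 7 genes, had lower levels in exercise than in control libraries at an adjusted p under 0.05 (limma, Benjamini-Hochberg over 4328 genes), and none had a higher level. Across all genes tested, 26.8% were lower by this criterion and 8.78% were higher. Mb alone had groups that did not overlap. Among all genes tested, 24% had groups that did not overlap with exercise lower and 7.62% had such groups with exercise higher. The estimate was below 0 for Ckm, Ckmt2, Mb and Car3 and above 0 for Ckb, Ak1 and Ampd1, with that of Ak1 close to 0. The median log2 fold change was -1.74 over the 7 members and -1.42 over all genes tested, of which 68.3% had an estimate below 0. A member's share of calls was therefore read against a table in which estimates below 0 prevailed.

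**Figure D1:**
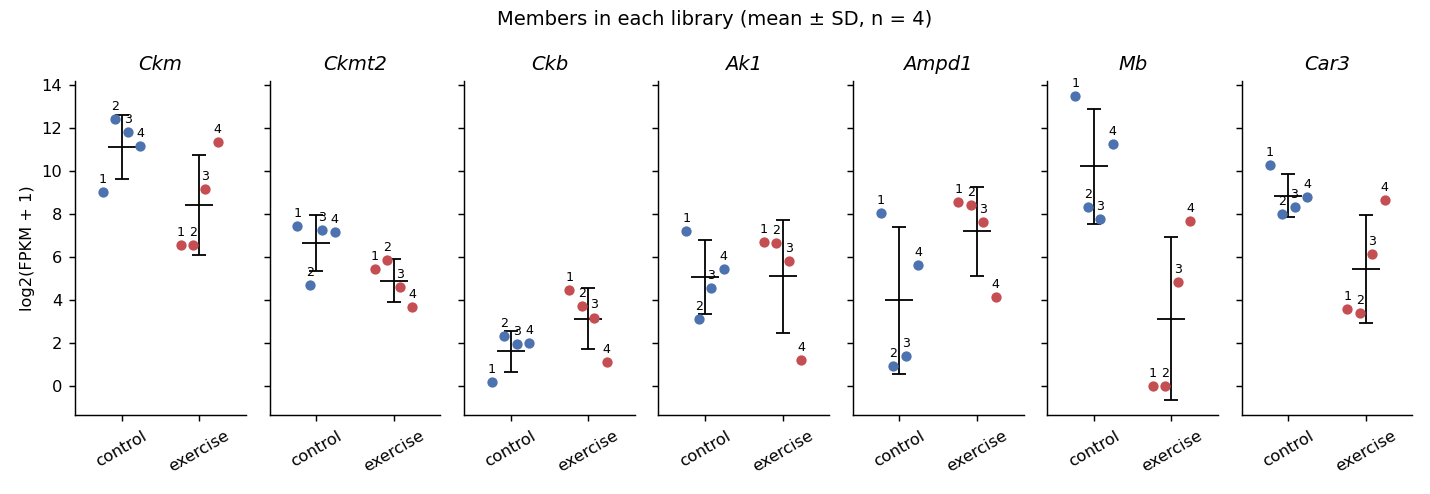
Level of each of the 7 genes, as log2(FPKM + 1) on the vertical axis, in the 4 control (blue) and 4 exercise (red) libraries. Numbers name the libraries, and the black bars give the mean and SD (n = 4). The groups are apart for Mb only, where exercise 1 and 2 lie at 0, and exercise 4 lies within the control range for Ckm and Car3.

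Together the 7 genes took 2.05%, 2.0%, 1.57% and 1.66% of the reads of control 1 to 4 and 0.318%, 0.30%, 0.258% and 0.230% of the reads of exercise 1 to 4. On this scale every control library was higher than every exercise library. The lowest control share had a 95% Wilson interval of 1.55% to 1.58% and the highest exercise share one of 0.307% to 0.329%, which cover counting error only. Of the reads left after mitochondrial transcripts were set aside, the members took 1.85% to 2.26% in control and 0.325% to 0.733% in exercise libraries.

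Which gene led these reads differed from library to library. Mb gave 68.4% of the member reads in control 1. Ckm gave 93.1%, 87.8% and 58.5% in control 2, 3 and 4, and again 59.3% and 83.8% in exercise 3 and 4. In exercise 1 and 2 the leading gene was Ampd1, with 65.6% and 64.4%.

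**Figure D2:**
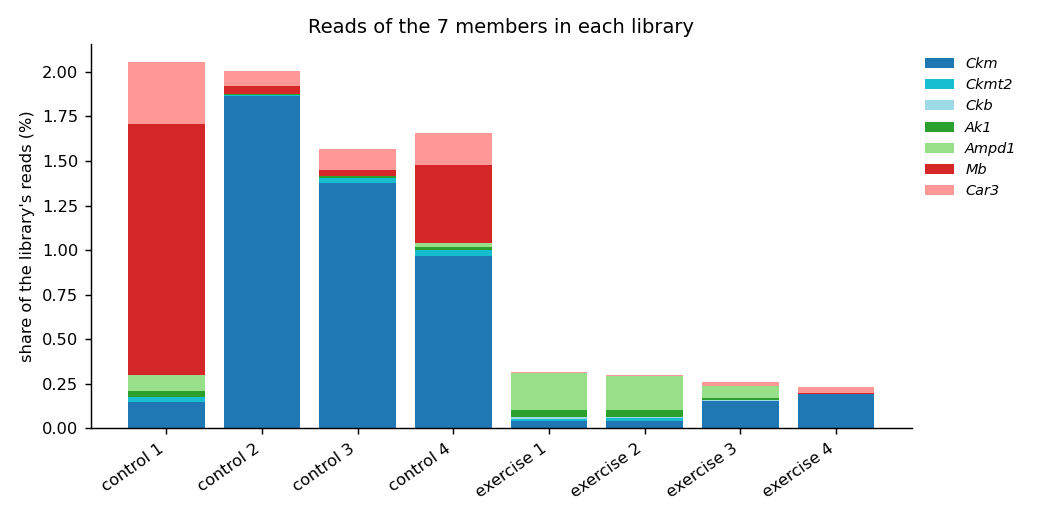
Share of each library's reads, in percent, that fell on the 7 genes, stacked by gene, for the 4 control and 4 exercise libraries. The control bars reach 1.57% to 2.05% and the exercise bars 0.230% to 0.318%, with Mb filling most of the bar of control 1 and Ampd1 most of the bars of exercise 1 and 2.

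Ckm (ENSMUSG00000030399, chr7:19404776-19422841, plus strand) had the highest mean level of the 7 genes over all 8 libraries, though Mb was higher in the mean of the control libraries. Its level was 519, 5573, 3646 and 2331 FPKM in control 1 to 4 and 92.0, 93.2, 568 and 2647 FPKM in exercise 1 to 4. Exercise 4 was higher than control 1 and control 4, and exercise 3 was also higher than control 1, so the groups overlapped. The mean was 3017 ± 2132 FPKM in control and 850 ± 1219 FPKM in exercise libraries (SD, n = 4 each). The log2 fold change was -2.72 ± 1.16 (SE), with an adjusted p of 0.0883 in limma and an exact permutation p of 0.143 (two-sided), so the difference did not pass the test. As a share of all reads, Ckm was 0.148%, 1.87%, 1.38% and 0.969% in control 1 to 4 and 0.0423%, 0.0428%, 0.153% and 0.192% in exercise 1 to 4. On that scale exercise 4 was below control 4 as well as control 2 and 3, and exercise 3 and 4 were still above control 1. With reads scaled to the read total, limma gave Ckm a log2 fold change of -3.19 and an adjusted p of 0.0287, so that it passed on that scale. It also passed with an equal sum of FPKM (adjusted p = 0.0187) and with voom on the recovered reads (adjusted p = 0.0358), and on the deposited scale without exercise 4, at a log2 fold change of -3.71 and an adjusted p of 0.0235. The median change of all genes was -2.10 with the read total, -1.89 with the equal sum and -2.22 with voom, against -1.42 on the deposited scale. Genes called lower numbered 1474, 1470 and 1401 on those scales, against 1161. Ckm did not pass with reads scaled to nuclear reads, which leaves out mitochondrial transcripts (-2.62, adjusted p = 0.0863), after quantile normalization (-2.92, adjusted p = 0.0606) or when centred on myofibre markers (-1.11, adjusted p = 0.617).

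Ckmt2 (ENSMUSG00000021622, chr13:91853387-91876885, minus strand), the mitochondrial partner of Ckm, had a level of 174, 25.1, 151 and 144 FPKM in control 1 to 4 and of 43.1, 57.8, 23.7 and 11.7 FPKM in exercise 1 to 4. Control 2 was the exception in its group and lay below exercise 1 and 2, while the other 3 control libraries lay above every exercise library. The mean was 124 ± 66.9 FPKM in control and 34.0 ± 20.4 FPKM in exercise libraries (SD, n = 4 each). The log2 fold change of -1.74 ± 0.86 (SE) did not pass the test (adjusted p = 0.128 in limma, exact permutation p = 0.0857). It was 0.32 below the median change of all genes tested. Control 2, the library with the least Ckmt2 among controls, was the one with the most Ckm.

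Ckb (ENSMUSG00000001270, chr12:111669361-111672338, minus strand), the kinase of non-muscle cells, was the lowest of the 7 in mean FPKM. Its level was 0.151, 3.95, 2.83 and 3.03 FPKM in control 1 to 4 and 21.1, 12.1, 8.10 and 1.2 FPKM in exercise 1 to 4. Exercise 1, 2 and 3 were higher than every control library and exercise 4 was not, but both control 1 and exercise 4 rested on 1 read. Control 2, 3 and 4 held 35, 32 and 35 reads and exercise 1, 2 and 3 held 102, 56 and 26. The mean was 2.49 ± 1.63 FPKM in control and 10.6 ± 8.30 FPKM in exercise libraries (SD, n = 4 each), and the log2 fold change of 1.51 ± 0.87 (SE) did not pass the test (adjusted p = 0.173 in limma, exact permutation p = 0.114). Ckb passed with exercise 4 left out, at a log2 fold change of 2.17 and an adjusted p of 0.0417. It also passed after quantile normalization, at 2.89 and an adjusted p of 0.0306. Ckb did not pass with exercise 1 and 2 averaged (1.19, adjusted p = 0.329 in limma). Nor did it after removal of control 4 and exercise 3 as well (1.13, adjusted p = 0.623 in limma).

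The difference between Ckm and Ckb within a library does not depend on how libraries are scaled, apart from the pseudocount of 1. On the log2(FPKM + 1) scale Ckm exceeded Ckb by 8.82, 10.14, 9.89 and 9.17 in control 1 to 4 and by 2.07, 2.84, 5.97 and 10.23 in exercise 1 to 4. Exercise 1, 2 and 3 had a smaller excess of Ckm than any control library, and exercise 4 did not. The mean difference was 9.51 ± 0.61 in control and 5.28 ± 3.71 in exercise libraries (SD, n = 4 each), a change of -4.23 (exact two-sided permutation p = 0.143). Without exercise 4 the change was -5.88 with an exact permutation p of 0.0286, the least that 4 libraries against 3 allow. With exercise 1 and 2 averaged it was -3.29 (exact permutation p = 0.171), and after removal of control 4 and exercise 3 as well -3.27 (exact permutation p = 0.400). As a ratio of FPKM, Ckm was 3449, 1412, 1288 and 768 times Ckb in control 1 to 4, with control 1 on 1 read of Ckb. It was 4.37 and 7.68 times Ckb in exercise 1 and 2, 70.1 times in exercise 3 and 2208 times in exercise 4, again on 1 read of Ckb. By this ratio control 1 was the highest of the 8 libraries, and on the log2(FPKM + 1) scale exercise 4 was.

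**Figure D3:**
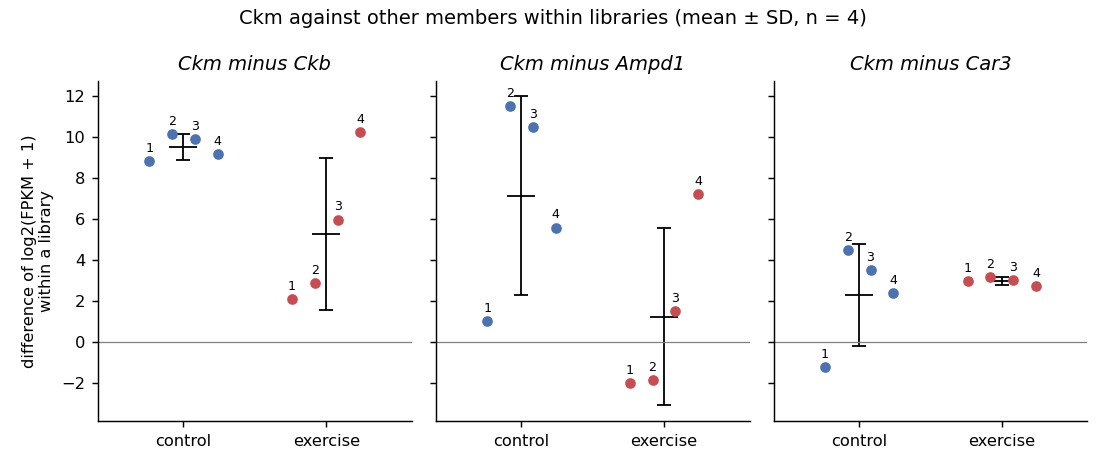
Difference in log2(FPKM + 1) between Ckm and Ckb, Ampd1 or Car3 within each library, on a shared vertical axis, for control (blue) and exercise (red) libraries numbered 1 to 4, with mean and SD (n = 4). Ckm exceeds Ckb by 8.82 to 10.14 in control libraries and by 2.07 to 10.23 in exercise libraries, while its difference to Car3 stays between 2.71 and 3.18 in exercise libraries and runs from -1.25 to 4.45 in controls.

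Ak1 (ENSMUSG00000026817, chr2:32621758-32635058, plus strand), the cytosolic adenylate kinase of muscle, differed least between the groups. Its level was 148, 7.56, 22.4 and 42.2 FPKM in control 1 to 4 and 103, 99.3, 55.0 and 1.34 FPKM in exercise 1 to 4. The highest value was in a control library and the lowest, on 1 read, in an exercise library. The mean was 55.0 ± 63.5 FPKM in control and 64.7 ± 47.6 FPKM in exercise libraries (SD, n = 4 each). The log2 fold change was 0.02 ± 1.36 (SE) with an adjusted p of 0.990 in limma and an exact permutation p of 1, and its sign turned in 11 of 19 alternatives. At this SE even a change of several fold in either direction could have been missed, so Ak1 was not shown to be unchanged.

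Ampd1 (ENSMUSG00000070385, chr3:103074014-103099720, plus strand), the muscle AMP deaminase, varied more among the control libraries than any other member. Its level was 260, 0.920, 1.59 and 47.9 FPKM in control 1 to 4 and 372, 345, 198 and 16.6 FPKM in exercise 1 to 4. Control 2 and 3 rested on 10 and 22 reads and control 1 on 2113, a ratio of 282 between the highest and lowest control FPKM. The mean was 77.5 ± 123 FPKM in control and 233 ± 163 FPKM in exercise libraries (SD, n = 4 each). The log2 fold change of 3.20 ± 1.67 (SE) did not pass the test (adjusted p = 0.141 in limma, exact permutation p = 0.200). Without control 1 it was 4.55 with an adjusted p of 0.0432. In exercise 1 and 2 Ampd1 exceeded Ckm in FPKM, where Ckm was 0.247 and 0.270 times Ampd1, and in each of the other 6 libraries Ckm was the higher.

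Mb (ENSMUSG00000018893, chr15:77015489-77050670, minus strand) had the largest fall of the 7 genes. Its level was 11445, 324, 219 and 2425 FPKM in control 1 to 4 and 0, 0, 27.4 and 202 FPKM in exercise 1 to 4. Every control library was higher than every exercise library, although control 3 and exercise 4 were close. The control libraries held 32868, 1241, 1071 and 12100 reads of Mb and the exercise libraries 0, 0, 38 and 73, and a count of 0 allows up to 1.43 FPKM in exercise 1 and 1.5 FPKM in exercise 2. The mean was 3603 ± 5326 FPKM in control and 57.4 ± 97.5 FPKM in exercise libraries (SD, n = 4 each), with control 1 far above the other control libraries.

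The log2 fold change of Mb was -7.09 ± 1.89 (SE), with an adjusted p of 0.0231 in limma. Its exact permutation test gave 0.0286 (two-sided), a value that 4 libraries against 4 cannot go below. Relative to the median change of all genes tested it was -5.67. The call was lost without control 4 (adjusted p = 0.0700), without exercise 1 (adjusted p = 0.0639) and without exercise 2 (adjusted p = 0.0641). With exercise 1 and 2 averaged the log2 fold change was -6.05 with an adjusted p of 0.0636, and after removal of control 4 and exercise 3 as well it was -6.04 with an adjusted p of 0.449. The means of Mb were 3996 FPKM in control 1, 2 and 3 and 101 FPKM in exercise 1 and 4. These smaller groups could not overlap, since those of all 8 libraries did not.

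Of the 15 myofibre markers tested, 3 were lower in exercise libraries, as Mb was, and 12 were not called. Pygm (muscle glycogen phosphorylase) was 149 to 308 FPKM in control libraries and 0, 0, 13.5 and 64.7 FPKM in exercise 1 to 4, and Tcap (a titin cap protein) was 1068, 48.9, 38.9 and 221 FPKM in control 1 to 4 and 0, 0, 5.71 and 87.8 FPKM in exercise 1 to 4. Both had no read in the same 2 libraries as Mb. The median log2 fold change of the 15 was -1.94, against -1.42 for all genes tested. Among those not called, the estimates ran from -4.17 for Casq1 (calsequestrin of fast fibres) and -3.50 for Mybpc2 to -0.08 for Tnnt3 and 0.20 for Ttn. Acta1, the skeletal muscle actin with the highest mean level of the markers, was 16152 to 30962 FPKM in control and 9438 to 26198 FPKM in exercise libraries. Actn3 (α-actinin of fast fibres) was 4541 to 23094 FPKM in control libraries and 301, 329, 8825 and 48303 FPKM in exercise 1 to 4 (log2 fold change -1.94, not called). After each library was centred on the mean of the myofibre markers, the log2 fold change of Mb was -5.48 with an adjusted p of 0.0288, and that of Car3 was -1.80 with an adjusted p of 0.253. That centring moved the median change of all genes to 0.20. The part of fibre content in these results was not otherwise tested.

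Car3 (ENSMUSG00000027559, chr3:14863512-14872523, plus strand) was the other gene that fell. Its level was 1237, 253, 318 and 447 FPKM in control 1 to 4 and 10.9, 9.41, 70.2 and 405 FPKM in exercise 1 to 4. Exercise 1, 2 and 3 lay below every control library, and exercise 4 lay above control 2 and 3. The mean was 564 ± 456 FPKM in control and 124 ± 189 FPKM in exercise libraries (SD, n = 4 each), with control 1 and exercise 4 far above the rest of their groups. As a share of all reads it was 0.347%, 0.0834%, 0.118% and 0.183% in control 1 to 4 and 0.00491%, 0.00425%, 0.0186% and 0.0289% in exercise 1 to 4, and on that scale the groups did not overlap. How many of all genes had no overlap on that scale was not computed. Their median log2 fold change there was -2.10, against -1.42 on the deposited scale.

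The log2 fold change of Car3 was -3.41 ± 1.18 (SE), with an adjusted p of 0.0483 in limma, just under the threshold, and an exact permutation p of 0.0857. The call was lost when any library other than exercise 4 was left out, with adjusted p-values of 0.103, 0.0712, 0.0804 and 0.109 without control 1 to 4 and of 0.115, 0.114 and 0.0918 without exercise 1, 2 and 3. Without exercise 4 the adjusted p was 0.00644. With exercise 1 and 2 averaged it was 0.113, and after removal of control 4 and exercise 3 as well 0.458. Of 8 markers of slow fibres 5 had a read and 3 were tested. Atp2a2, the slow fibre calcium pump, was called lower (log2 fold change -2.07, adjusted p = 0.0460 in limma), with no read in control 1 or in exercise libraries. Tpm3, a slow tropomyosin, was 19.5 to 41.8 FPKM in control and 0 to 11.02 FPKM in exercise libraries (-2.54, adjusted p = 0.0502 in limma), and Tnnc1, the slow troponin C, had reads in exercise 3 and 4 alone (3.68, adjusted p = 0.123 in limma). Their part in the result was not tested. Car3 is also a gene of adipocytes, and of 9 adipocyte markers 8, Adipoq and Plin1 among them, had no read in any library. The ninth, Plin4 (a lipid droplet coat protein), was 131 and 27.2 FPKM in control 1 and 4, 0.0443 FPKM in control 3 and 0 elsewhere.

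**Figure D4:**
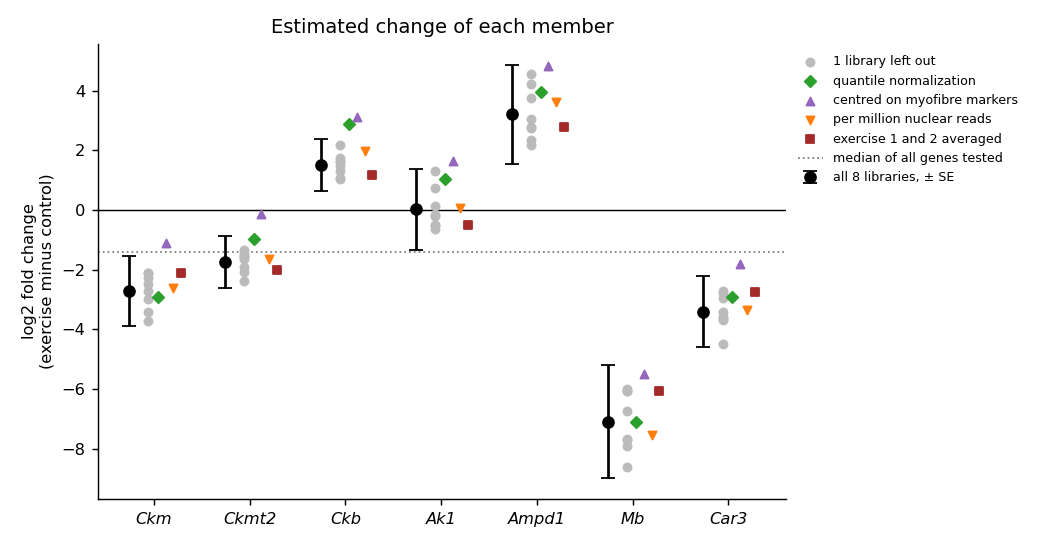
Log2 fold change (exercise minus control) of each gene, with its SE for all 8 libraries (black) and without SE for fits with 1 library left out (grey), quantile normalization, centring on myofibre markers, reads scaled to the nuclear read total, and exercise 1 and 2 averaged. The dotted line is the median of all genes tested, -1.42. Mb and Car3 lie below 0 and Ckb and Ampd1 above 0 in every fit shown, and Ak1 lies on both sides.

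Across the 8 libraries some members had opposed patterns. Pearson's r of log2(FPKM + 1) was 0.98 between Mb and Car3, 0.74 between Ak1 and Ampd1, -0.89 between Ckm and Ampd1, and -0.94 between Ckb and Car3. Within the exercise group Ckm, Mb and Car3 were highest in exercise 4, and Ckb, Ak1, Ampd1 and also Ckmt2 were lowest there. Ckmt2 had an r of -0.05 to Ckm, 0.61 to Ak1 and 0.28 to Car3. These values describe 8 libraries that differ in depth and are not independent in their gene content.

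In control 4 and exercise 3 the members' shares were near weighted sums of other libraries of the same group. When the shares of reads of control 1 and control 3 were weighted by 0.281 and 0.714 and summed, the observed shares in control 4 were 0.936 to 1.63 times the sum over the 7 members, with a median of 1.0. The ratio of 1.63 was that of Ckb, on 35 reads. For exercise 3, weighted from exercise 1 and 4, the observed shares were 0.738 to 1.07 times the sum, with a median of 0.981. The Mb level of control 4, for example, was 0.434% of reads against a weighted sum of 0.421%. Exercise 1 and 2 were also near each other, with exercise 2 at 1.01 times the Ckm and 0.929 times the Ampd1 FPKM of exercise 1, though at 0.575 times its Ckb.

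**Figure D5:**
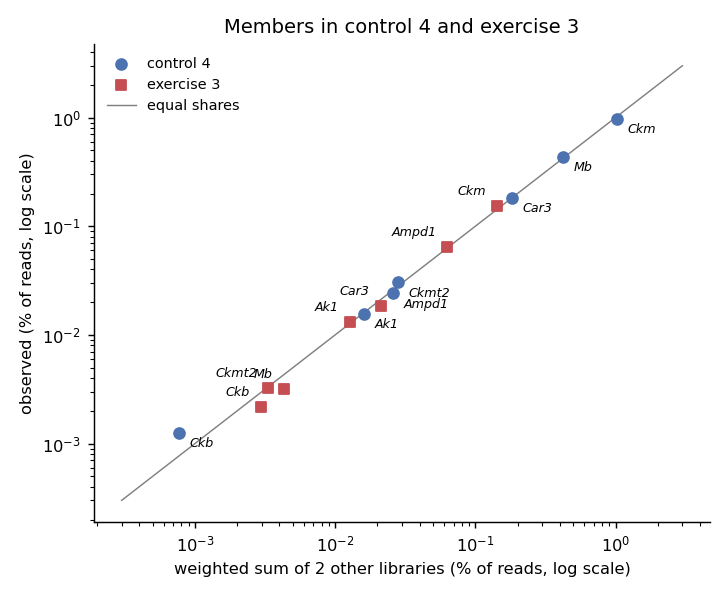
Share of reads of each member observed in control 4 (blue circles) and exercise 3 (red squares) against the weighted sum of its shares in control 1 and 3, or in exercise 1 and 4, with both axes in percent of reads on a log scale. Points on the line have equal shares, and the ratio of observed to weighted share is 0.936 to 1.63 in control 4 and 0.738 to 1.07 in exercise 3.

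For each member, the genes with the most similar pattern over the 8 libraries were found by Pearson's r of log2(FPKM + 1). Among the 3 most alike were 1700020I14Rik, Psmc3 and Eef1a2 for Ckm (r = 0.994 to 0.998), Flot2 and Gnb2 for Ckmt2 (r = 0.98 and 0.97), and Larp4, Zfp131 and Hnrnpa1 for Ckb (r = 0.97 to 0.98). They were Canx, Nek9 and Fbxo32 for Ak1 (r = 0.98 to 0.99), and Unc45b, Polr2m and Rbm8a for Ampd1 (r = 0.99 for each). For Mb they were Pgm2, Tcap and Eif3h and for Car3 Rps18, Pgm2 and Eif3h (r = 0.99 for each), so Mb and Car3 had 2 of 3 in common. Of these, Eef1a2 is the elongation factor of muscle and neurons, Fbxo32 (atrogin-1) a ubiquitin ligase subunit of muscle wasting, and Unc45b a myosin chaperone.

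Beyond the 7 genes, 53 further genes of the same pathways were in the table, in 6 lists. Of these 27 had no read in any library and 14 were tested, of which 7 were lower and 1 was higher in exercise at an adjusted p under 0.05, beside 26.8% lower and 8.78% higher among all genes tested. Their median log2 fold change was -2.25, against -1.42 for all genes tested. With exercise 1 and 2 averaged, limma called Adsl, Ak6 and Nt5e only, and after removal of control 4 and exercise 3 as well it called 0 of the 14 (1 at an unadjusted p under 0.05). Centred on myofibre markers, Nt5e and Aprt were called, both higher, and 0 were called lower. After quantile normalization 2 were called lower (Adsl and Gatm) and 2 higher (Aprt and Nt5e). Without a filter 2 were called lower (Adsl and Ak6) and 1 higher (Nt5e).

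Creatine supply was represented by 4 genes. Gatm, the enzyme that opens creatine synthesis, was the 1 gene tested and was 0, 112, 65.8 and 38.3 FPKM in control 1 to 4, with no read in any exercise library (adjusted p = 0.0315 in limma, exact permutation p = 0.143). Control 1 also had no read of it, so the groups overlapped. The endothelial gene Kdr likewise had no read in control 1 and was highest in control 2, while Pecam1, Cdh5, Emcn and Cldn5 of the same marker list had no read in any library and the sort left out CD31-positive cells. The part of endothelial RNA in the result was not tested. The creatine transporter Slc6a8 stayed under 1 FPKM in every library, and Gamt and the other mitochondrial kinase Ckmt1 had no read.

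Of 8 other adenylate kinases 2 were tested and both were lower. Ak3, the mitochondrial matrix form, was 2.52, 4.08, 3.86 and 2.57 FPKM in control 1 to 4 and 0.575, 0.603, 0.289 and 0 FPKM in exercise 1 to 4 (log2 fold change -1.64 ± 0.50 SE, adjusted p = 0.0337 in limma). Ak6 was 2.36 to 5.31 FPKM in control libraries, on 15 to 45 reads, and had no read in exercise libraries (adjusted p = 0.0101 in limma). The groups did not overlap for either gene, and in each control library both levels were below that of Ak1, by the least margin in control 2 (7.56 FPKM of Ak1 against 4.08 of Ak3 and 5.31 of Ak6).

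Of 13 genes of the purine nucleotide cycle and AMP breakdown, 6 were tested, 3 of them lower and 1 higher. The cycle partners of Ampd1 were both lower. Adssl1, the muscle adenylosuccinate synthase, was 263, 192, 162 and 157 FPKM in control 1 to 4 and 19.5, 17.7, 44.4 and 115 FPKM in exercise 1 to 4, with groups that did not overlap (log2 fold change -2.34 ± 0.75 SE, adjusted p = 0.0385 in limma). Adsl, which closes the cycle by releasing fumarate, was 4.41, 314, 179 and 110 FPKM in control 1 to 4 and at most 0.111 FPKM, on 1 read, in exercise libraries (adjusted p = 0.00579 in limma). Among control libraries Adsl was lowest in control 1 and highest in control 2, as both Kdr and Ckm were.

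The salvage enzyme Hprt was 0, 207, 128 and 73.2 FPKM in control 1 to 4 and 0, 0, 0 and 2.69 FPKM in exercise 1 to 4 (adjusted p = 0.0398 in limma), with 1 read in exercise 4, and so also had no read in control 1 and was highest in control 2, as Kdr was. Nt5e (CD73), the surface enzyme that turns AMP into adenosine, rose, from at most 0.0875 FPKM on 3 reads in control libraries to 37.6, 34.4, 23.6 and 1.61 FPKM in exercise 1 to 4 (log2 fold change 4.05 ± 0.90 SE, adjusted p = 0.0113 in limma). The groups did not overlap, though exercise 4 held only 4 reads. Pnp, a purine phosphorylase and the gene of this list with the highest mean level, was 0.141, 68.8, 43.1 and 26.5 FPKM in control 1 to 4 and 374, 365, 178 and 24.7 FPKM in exercise 1 to 4 and did not pass the test (adjusted p = 0.0957 in limma). Nt5e is also a surface marker of stromal cells, and the summed level of 7 markers of fibro-adipogenic progenitors was 2578 to 3567 FPKM in control and 3595 to 9401 FPKM in exercise libraries, with 2 of the 7 called higher (Lum and Gsn). Pdgfra, a defining marker of these cells, lay the other way, at 9.44 to 35 FPKM in control and 2.42 to 7.99 FPKM in exercise libraries, with groups that did not overlap (log2 fold change -1.65, adjusted p = 0.0840 in limma). The sort took Sca1-negative cells, a gate meant to remove these progenitors. Ly6a, the gene of Sca1, was at most 8.94 FPKM in control and 7.44 FPKM in exercise libraries, with no read in control 1 and exercise 4. Dcn, of the same marker list, was 1065 to 1900 FPKM over the 8 libraries. The part of these progenitors in the result was not tested.

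Among 7 subunits of AMP-activated kinase, the sensor of AMP, 2 were tested. Prkab2, the β subunit of muscle, was 28.1, 4.36, 3.67 and 6.35 FPKM in control 1 to 4 and 0, 0, 0.708 and 1.36 FPKM in exercise 1 to 4, with groups that did not overlap (log2 fold change -2.59 ± 0.75 SE, adjusted p = 0.0304 in limma). It was highest in control 1, as Mb was, and had no read in exercise 1 and 2. Of 6 other globins 3 were tested and none passed. The β-globin Hbb-bs had the highest mean level, with 68.4 and 32.0 FPKM in control 3 and 4, 1.56 FPKM in exercise 1 and 0 elsewhere, and so did not follow Mb. Of 15 other carbonic anhydrases Car9 alone had a read, with 8 reads in control 1 and 2 in control 4. A value of 0 in these libraries does not show that a gene is unused, since Tnnc2, the fast troponin C, was also listed at 0 in all 8, beside Tnni2, its partner in fast fibres, at 468 to 6738 FPKM.

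The genes annotated across the same positions as members (A930016O22Rik at Ckm, 1700119I11Rik at Ckmt2, Gm23820 and Gm43063 at Ampd1, and Apol6 at Mb) all were at 0 FPKM in every library.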

How the data were processed

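The authors sorted SCs, sequenced amplified mRNA and deposited 1 table of FPKM values for 8 libraries. The submitters' processing notes name Bowtie 0.12.9, Cufflinks 2.1.1, HTSeq and the build mm10 (GRCm38), and the methods name DESeq2 for the authors' own tests. FPKM times gene length gave whole multiples of 1 step per library (100% within 0.001), so reads could be recovered, but a count test was not the main test. Rows that share a symbol were summed (101 rows fewer). No column was left without a sample.

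Groups came from the treatment labels. Tests covered the 4328 genes whose mean reached 1 FPKM, on log2(FPKM + 1), so that changes of low genes are understated, with limma 3.58.1 in R 4.3.3 (lmFit, eBayes with trend, Benjamini-Hochberg adjusted p under 0.05), checked on simulated data. Exact two-sided permutation tests of all 8 libraries used their 70 assignments. The exception was the replicate number as a block, where labels were exchanged within same-numbered pairs only. A count of 0 was taken to allow 3 reads, and intervals cover counting error alone, as reads of amplified cDNA need not be separate molecules. Named were all members, the 3 genes most alike each, and pathway genes that passed the test or had the highest mean of their list. A gene that this rule names is not reported here. Members and lists (15 besides the members) were chosen with earlier results of these data known. Promoters came from RefSeq (GRCm38.p6) and transcripts from GENCODE vM21. Biopython 1.88, numpy 2.4.6, pandas 2.3.3 and matplotlib 3.10.9 in Python 3.11.15 were used.

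The alternatives were a pseudocount of 0.1, no filter, quantile normalization, an equal sum of FPKM, reads scaled to the read total, voom on recovered reads, the replicate number as a block, each library left out, and the averaged or reduced sets of libraries. Centring on myofibre markers and scaling to nuclear reads were added after the data were seen.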

Additional observations from a re-analysis of the deposited data

Results flagged for a closer look

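Of 16 sets of 4 libraries (7 members and the Ckm to Ckb difference, in 2 groups), 2 held a library farther from the others than Dixon's 95% limit, where chance gives 0.8. Ckmt2 was 4.70 on the log2(FPKM + 1) scale in control 2, the lowest of its group, with a gap of 0.902 of the group's range. Ak1 was 1.23 on the same scale in exercise 4, also the lowest, with a gap of 0.836 of the range and on 1 read.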

How the results depend on the processing

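Over 19 alternatives Mb and Car3 were lower in exercise each time, Mb between -8.76 and -5.48 (log2) and passing in 13, Car3 between -4.48 and -1.80 and passing in 7. Ckm (-3.71 to -1.11, passing in 4) and Ckmt2 (-2.39 to -0.13, in 0 for limma) also kept their sign, as did Ckb (1.04 to 3.12, in 2) and Ampd1 (2.19 to 4.81, in 1). Ak1 turned below 0 with a pseudocount of 0.1 (-0.10), an equal sum of FPKM (-0.39), reads scaled to the read total (-0.33), voom (-0.47), exercise 1 and 2 averaged (-0.51) and control 4 and exercise 3 also left out (-1.0), and ran from -0.64 to 1.31 with 1 library left out (-0.15 without control 3, -0.51, -0.50 and -0.22 without exercise 1, 2 and 3). The cause was not tested.

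Of the 7 members, limma called 2 with all libraries, 0 without a filter, where more genes are tested (3 at an unadjusted p under 0.05), 0 with exercise 1 and 2 averaged (2 unadjusted), 0 with control 4 and exercise 3 also left out (1 unadjusted), 1 when centred on myofibre markers, and 0 to 4 with 1 library left out. The calls were 0 without control 4, exercise 1 or exercise 2 (2 unadjusted in each), and 4 (Ckm, Ckb, Mb and Car3) without exercise 4. Quantile normalization called Ckb and Mb. Over all genes the 1541 calls (380 higher, 1161 lower) became 840 without a filter, 941 after quantile normalization (566 higher, 375 lower), 605 with exercise 1 and 2 averaged, 0 with the smaller set (456 unadjusted, voom not run on it), 540 when centred on myofibre markers (474 higher, 66 lower), and 527 (without exercise 3) to 1899 (without control 1) with 1 library left out. The median change of all genes was -0.44 after quantile normalization and -1.89 with reads scaled to nuclear reads. The Ckm to Ckb change ran from -5.88 (without exercise 4, exact permutation p = 0.0286) to -3.16 with 1 library left out.

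Deviations from the group mean were hardly correlated between same-numbered libraries (-0.02 to 0.04). Control 2, 3 and 4 each correlated best with the exercise library of the same number, and control 1 with exercise 4. These values cannot decide whether the numbers pair samples. With 1 library left out 3 to 8 of the 13 or 14 pathway genes tested were called, Adsl, Ak6 and Nt5e each time. With the replicate number as a block 1059 genes were called, 5 of the 14 pathway genes (8 without it) among them, and Mb and Car3 stayed the 2 members called. The Ckm to Ckb change of -4.23 then had a p of 0.250 in an exact test that exchanged labels only within same-numbered pairs. With so few pairs the least p that this test allows is too high for any change to pass, so it decides nothing here. Low counts limit most members: Ckmt2 (5 reads), Ckb (1), Ak1 (1), Ampd1 (17) and Mb (0) in an exercise library, and Ckb (1) and Ampd1 (10 and 22) also in deeper control libraries.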
